A study of Mus musculus with 42 samples.

Results

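The enzymes that make and desaturate fatty acids were followed through 10 genes, Acly, Me1, Acaca, Fasn, Elovl6, Elovl5, Scd1, Scd2, Fads1 and Fads2, in 4 hypothalamic nuclei of fed and fasted mice. Averaged over the nuclei, 4 of them fell on fasting (Scd2, Scd1, Fads1 and Fasn). Scd2, a stearoyl-CoA desaturase, was also called lower in the arcuate, ventromedial and paraventricular nuclei when all libraries were fitted together. With each nucleus fitted alone, none of these changes passed the threshold of an adjusted p under 0.1. The genes were chosen by symbol, as the steps from acetyl-CoA supply to polyunsaturated fatty acids, and are 10 of the 37907 genes measured. The choice was made with earlier results of these data known, so comparisons with all genes are a description and not a test. All 10 passed the filter on low values. The samples were 42 RNA-seq libraries of laser-captured arcuate (ARC), ventromedial (VMH), dorsomedial (DMH) and paraventricular (PVN) nuclei, from adult wild-type male mice on a C57/BL6 background that were either fed ad libitum or deprived of food for 24 hours. There were 5 fed and 5 fasted libraries of the ARC, 6 and 6 of the VMH, 5 and 4 of the DMH, and 6 and 5 of the PVN. A library pools the cells of a whole nucleus, and the labels do not say which libraries came from the same mouse, although all 4 nuclei were cut from each brain.

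Fatty acid synthesis starts in the cytosol. Citrate is cleaved to acetyl-CoA by ATP citrate lyase (Acly), acetyl-CoA is carboxylated to malonyl-CoA by acetyl-CoA carboxylase (Acaca), and fatty acid synthase (Fasn) builds palmitate from both, using NADPH that malic enzyme (Me1) helps to provide. Elongases then lengthen the chain and desaturases add double bonds, with the stearoyl-CoA desaturases making monounsaturated fatty acids and the fatty acid desaturases making polyunsaturated ones. In the liver this pathway is known to be switched on by feeding and insulin through the transcription factor Srebf1. In the brain it supplies membranes and myelin, and Scd2 is the main stearoyl-CoA desaturase of that tissue.

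Values are RPKM, that is, reads normalised to gene length and to library depth. The length used and stretches shared with other genes also affect a level, so different genes are compared only roughly. Changes are fasted minus fed on the log2(RPKM + 1) scale with a standard error (SE). They were tested in limma and called at an adjusted p under 0.1 over the 33579 genes tested. Of these genes, 28831 varied. The others could not be called, which lowers the shares given below over all genes tested. Each of the 10 genes had a mean level above at least 75.7% of the genes tested. The estimated depth of a library was 4.57 M reads on average (1.33 to 13.2 M). Depth did not differ detectably between fed and fasted libraries in the ARC, VMH and PVN (exact permutation p = 0.548, 0.688 and 0.870), but the DMH libraries had 3.91 ± 0.862 M reads in fed (SD, n = 5) and 7.38 ± 4.0 M in fasted mice (n = 4; exact permutation p = 0.0476). The nuclei expressed the markers of their labels. Agrp was 133 ± 32.9 RPKM in the fed ARC and 3.49 to 5.05 in the other fed nuclei, Nr5a1 was 21.8 ± 10.003 in the fed VMH, Npvf was 103 ± 37.8 in the fed DMH and Sim1 was 19.1 ± 3.29 in the fed PVN. A further DMH marker, Ppp1r17, was 47.3 ± 13.5 RPKM in fasted and 18.9 ± 5.79 in fed PVN libraries, a called rise (log2 change 1.28, adjusted p = 0.0345), while Npvf stayed low there (1.43 and 1.82 RPKM). The part of dissection in the PVN results below was not tested.

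The desaturases Scd1 and Scd2 lie close together on chromosome 19 and are close copies, so their coding sequences are shown first, because a read that falls in the stretch they share cannot be given to either. Over their coding sequences of 1065 and 1074 bases, 90.3% of the aligned bases were identical, and 147 bases in a row were the same in both, across the junction of exons 4 and 5. Below, this stretch is given with 60 coding bases on each side, taken from the GENCODE M21 transcripts (GRCm38), with the 3 bases that differ between the genes in capitals. The Scd1 bases lie within chr19:44400281-44401865 on the minus strand and the Scd2 bases within chr19:44299642-44301305 on the plus strand, both interrupted by an intron.
Scd1: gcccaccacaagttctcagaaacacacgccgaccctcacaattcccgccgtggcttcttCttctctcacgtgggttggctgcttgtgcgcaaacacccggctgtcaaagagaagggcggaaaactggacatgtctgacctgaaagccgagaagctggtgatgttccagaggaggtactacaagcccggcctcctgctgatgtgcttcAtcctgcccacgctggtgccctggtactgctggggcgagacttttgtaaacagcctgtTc
Scd2: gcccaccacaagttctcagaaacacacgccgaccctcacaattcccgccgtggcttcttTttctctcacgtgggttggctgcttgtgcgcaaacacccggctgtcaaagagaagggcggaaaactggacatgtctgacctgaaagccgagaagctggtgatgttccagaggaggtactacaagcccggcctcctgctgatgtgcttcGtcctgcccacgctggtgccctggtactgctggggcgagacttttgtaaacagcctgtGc
Over the whole transcripts, 4.56% of the 50-base windows of Scd1 and 3.97% of those of Scd2 recurred in a transcript of another gene, chiefly another Scd gene, so most of each gene could be told apart with reads of 50 bases. For Fads2 this share was 0.152%, and it was 0 for Fads1, Fasn, Acly and Elovl5. It was 28.3% for Me1 (shared with, among others, Gm7049) and 30.4% for Acaca (Gm5182), and the values of these 2 genes are therefore uncertain.

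Scd2, on chromosome 19 (GRCm38, 44293674 to 44306864, plus strand), had the highest level of the 10 genes, with a mean of 196 RPKM over the 42 libraries, above 99.6% of the genes tested, and an estimated median of 4669 reads a library. It fell on fasting in the ARC, the VMH and the PVN, by 0.42, 0.39 and 0.39 on the log2 scale, and was the only one of the 10 genes called in a single nucleus. In the ARC, the fed libraries held 207, 208, 207, 190 and 188 RPKM and the fasted libraries 163, 121, 177, 140 and 154. The highest fasted library was thus below the lowest fed library. The means were 200 ± 10.3 RPKM (SD, n = 5) and 151 ± 21.6 RPKM (n = 5), a fall of 24.6%, with a log2 change of -0.42 (SE 0.0870, adjusted p = 0.0737).

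The VMH had the highest Scd2 level of the 4 nuclei, with 262 ± 20.7 RPKM (n = 6) in fed mice. Fed VMH libraries ranged from 232 to 287 RPKM around a median of 259, and fasted libraries from 150 to 224 RPKM around a median of 216. Fed and fasted libraries did not overlap. The fasted mean was 202 ± 28.5 RPKM (n = 6), 23.0% lower (log2 change -0.39, SE 0.0795, adjusted p = 0.0555). In the PVN, the fed libraries ranged from 156 to 187 RPKM around a median of 181, while the fasted libraries held 118, 131, 147, 147 and 135. Again no fasted library reached the lowest fed library, and the means of 177 ± 10.8 (n = 6) and 136 ± 12.1 RPKM (n = 5) differed by 0.39 on the log2 scale (SE 0.0833, adjusted p = 0.0782).

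In the DMH, Scd2 held 221, 240, 250, 230 and 242 RPKM in fed libraries and 196, 197, 185 and 180 in fasted libraries. Here, too, all fasted libraries lay below all fed ones, but the change of -0.32 (SE 0.0923) did not pass the adjusted threshold (adjusted p = 0.327). The change of Scd2 was not shown to differ between the nuclei (interaction, adjusted p = 1). The two-sided exact permutation p was 0.00794 in the ARC and DMH, 0.00217 in the VMH and 0.00433 in the PVN, and the first 2 of these values are the smallest that their designs can give. Within the 3 batches of libraries inferred from the values, the 11 comparisons of a nucleus and batch gave log2 changes of -0.593 to -0.227 for Scd2. Their negative sign follows from the complete separation in each nucleus and adds nothing to it. There was no fasted DMH library in 1 batch.

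As a background, 0.0566%, 0.131%, 0.0238% and 0.0715% of all genes tested were called in either direction (ARC, VMH, DMH and PVN). A complete separation with every fasted library below every fed library was seen for 0.334%, 0.146%, 0.468% and 0.182% of the genes tested in these nuclei. The Scd2 calls stood close to the threshold. Leaving out 1 library ended the ARC call in 7 of 10 fits (fed replicate 1, 2, 3 or 4, or fasted replicate 1, 2 or 4, adjusted p = 0.110 to 0.168). The VMH call ended in 4 of 12 fits (fed replicate 1 or 4, or fasted replicate 2 or 3, adjusted p = 0.103 to 0.128) and the PVN call in 7 of 11 fits (fed replicate 1, 2, 4, 5 or 6, or fasted replicate 1 or 2, adjusted p = 0.116 to 0.264), with a negative change in each of these fits.

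**Figure D1:**
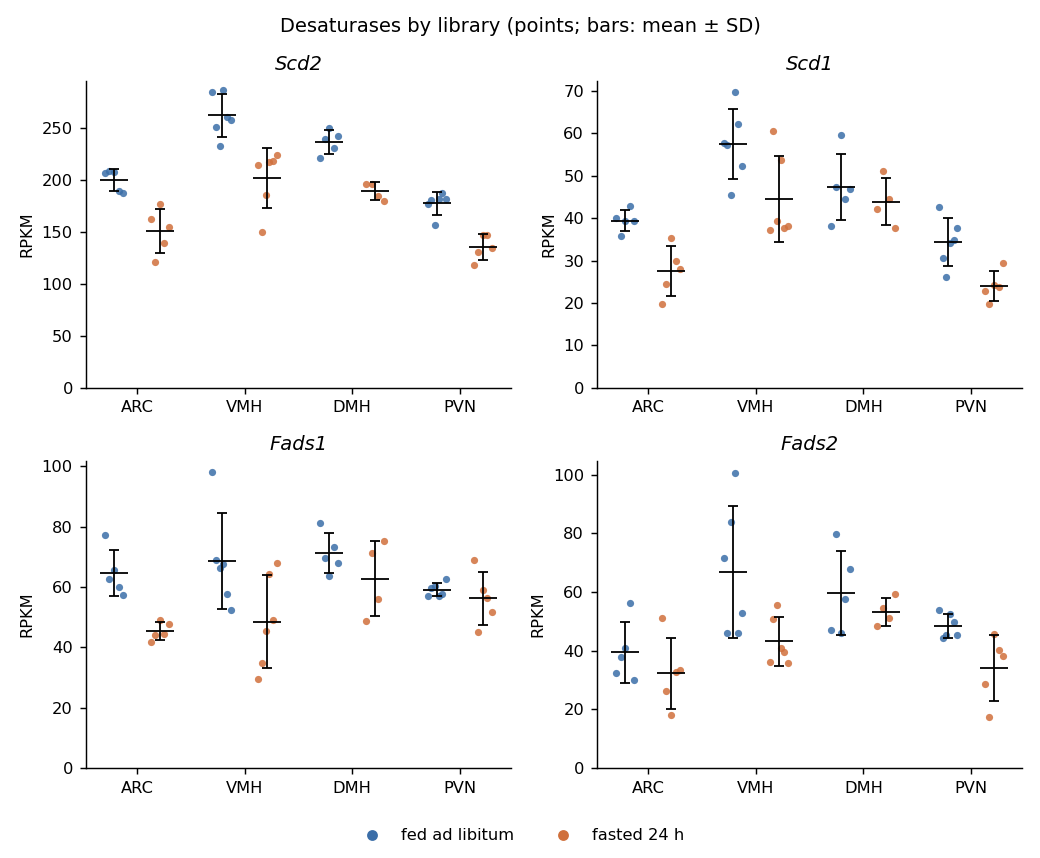
Level of Scd2, Scd1, Fads1 and Fads2 in each library (y axis, RPKM, from 0) by nucleus (x axis), with fed libraries in blue and fasted libraries in orange, 1 point a library, and bars giving the mean ± SD. Fed and fasted points of Scd2 do not overlap in any of the 4 nuclei, for example 188 to 208 RPKM against 121 to 177 RPKM in the ARC, whereas the points of Fads2 overlap in each nucleus.

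Averaged over the 4 nuclei, the change of Scd2 was -0.38 (SE 0.0428, adjusted p = 1.63e-06), with the fourth lowest p-value of all 33579 genes. Of the 10 genes, 4 were called in this average, all of them lower in fasted mice: Scd2, Scd1, Fads1 and Fasn. Among all genes tested, 0.286% were called lower. This share counts many genes of low level, whereas the 10 genes were all well above them. In the main fit 72 genes were called higher and 96 lower. With only the 14467 genes of a mean RPKM of at least 5, 216 were called in either direction. Of the 10 genes, 8 had a negative mean change, against 47.9% of all genes that varied, and the median change was -0.29 for the 10 genes and 0.0043 for the genes that varied. Because the nuclei share mice, the p-values of this average treat as independent libraries that are not. A lower level in a whole nucleus may be less RNA in each cell or fewer of the cells that carry it, and these cannot be told apart here.

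Scd1, on chromosome 19 (44394455 to 44407879, minus strand), is the stearoyl-CoA desaturase that predominates in liver and fat. Its level here was 40.1 RPKM on average, and each library held 2.48 to 8.21 times as much Scd2 as Scd1. How reads in the windows shared by these genes were counted is not known. Any such read given to the wrong gene would weigh more on Scd1, and the part of these reads in its change was not tested. In the ARC, Scd1 was 39.97, 35.7, 39.4, 42.9 and 39.3 RPKM in fed and 19.8, 24.4, 35.4, 29.8 and 28.0 RPKM in fasted libraries. The groups did not overlap, and the mean went from 39.4 ± 2.56 to 27.5 ± 5.85 RPKM (n = 5 and 5), 30.3% lower (log2 change -0.53, SE 0.145). In the PVN, Scd1 ranged from 26.1 to 42.6 RPKM around a median of 34.5 in fed libraries, and was 22.9, 19.8, 24.3, 23.7 and 29.4 RPKM in fasted libraries. There the highest fasted library lay above the lowest fed library, with a log2 change of -0.49 (SE 0.139). The VMH values were 45.5 to 69.8 RPKM (median 57.5) in fed and 37.2 to 60.7 RPKM (median 38.8) in fasted libraries, with wide overlap in fasted replicates 2 and 4 (60.7 and 53.8 RPKM) and a log2 change of -0.38 (SE 0.132). In the DMH, the means of 47.3 ± 7.75 (n = 5) and 43.8 ± 5.55 RPKM (n = 4) differed by -0.10 (95% interval -0.41 to 0.21).

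None of these single-nucleus changes of Scd1 passed the adjusted threshold (adjusted p = 0.277, 0.407, 1 and 0.353 for ARC, VMH, DMH and PVN), while the exact permutation p was 0.00794, 0.0346, 0.508 and 0.00866. The mean over the nuclei was called, with a log2 change of -0.37 (SE 0.0712, adjusted p = 0.00601). The calls of Scd2 and Scd1 in this mean held in all 42 fits that left out 1 library, with a highest adjusted p of 5.72e-06 and 0.0168. The ratio of Scd2 to Scd1 in a library was not shown to change with fasting (log2 change 0.13, -0.0007, -0.22 and 0.12 in the ARC, VMH, DMH and PVN, exact permutation p = 0.571, 0.996, 0.0952 and 0.381).

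The fatty acid desaturases Fads1 (delta-5) and Fads2 (delta-6) make polyunsaturated fatty acids and lie close together on chromosome 19 (10182888 to 10196877, plus strand, and 10062765 to 10101746, minus strand). Fads1 fell in the average of the nuclei (log2 change -0.32, SE 0.0789, adjusted p = 0.0581). In the ARC it held 77.2, 62.8, 65.8, 60.1 and 57.4 RPKM in fed libraries and 41.7, 44.0, 49.1, 44.4 and 47.6 RPKM in fasted libraries. The groups did not overlap (log2 change -0.50, SE 0.160, adjusted p = 0.446, exact permutation p = 0.00794). In the VMH, Fads1 spanned 52.5 to 98.3 RPKM (median 66.9) in fed and 29.4 to 67.8 RPKM (median 47.3) in fasted libraries. These groups overlapped (log2 change -0.52, SE 0.146, adjusted p = 0.240), and the 3 batches gave -1.34, -0.304 and 0.068. The means were closer in the DMH, with 71.2 ± 6.64 (n = 5) and 62.8 ± 12.5 RPKM (n = 4), and in the PVN, with 59.1 ± 2.18 (n = 6) and 56.3 ± 8.88 RPKM (n = 5), with log2 changes of -0.20 and -0.08.

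Fads2 had as large a mean change as Scd2 but a wider spread, and it did not pass the threshold (log2 change -0.40, SE 0.116, adjusted p = 0.176). In the PVN it ranged from 44.2 to 53.8 RPKM (median 47.5) in fed libraries and was 28.7, 17.2, 45.7, 40.2 and 38.1 RPKM in fasted libraries. Only fasted replicate 3 reached the fed range (log2 change -0.57, SE 0.225, adjusted p = 0.813, exact permutation p = 0.00866). In the VMH, the fed libraries were spread from 45.8 to 100.3 RPKM (median 62.2) and the fasted from 35.8 to 55.7 RPKM (median 40.2), and the groups overlapped (log2 change -0.57, adjusted p = 0.457, exact permutation p = 0.0281). The ARC change was -0.32 and the DMH change -0.13, both within the spread of the libraries (exact permutation p = 0.294 and 0.484). The call of Fads1 in the average ended without ARC-fed replicate 1 (adjusted p = 0.101), without DMH-fasted replicate 1 or 3 (0.126 and 0.114) and without PVN-fasted replicate 2 (0.101), and Fads2 was called without ARC-fasted replicate 1 (adjusted p = 0.0818).

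Fatty acid synthase, Fasn, on chromosome 11 (120805846 to 120824547, minus strand), was the only member of the synthesis steps called in the average of the nuclei (log2 change -0.25, SE 0.0615, adjusted p = 0.0587). Its upstream sequence is shown because Fasn is the called gene that has an entry in the RefSeq promoter table. The 120 bases before its start (chr11:120824548-120824667, minus strand, RefSeq, GRCm38.p6) hold 3 matches to the NF-Y box CCAAT, read on both strands and given in capitals, of which a pair overlaps as CCAATTGG.
Fasn: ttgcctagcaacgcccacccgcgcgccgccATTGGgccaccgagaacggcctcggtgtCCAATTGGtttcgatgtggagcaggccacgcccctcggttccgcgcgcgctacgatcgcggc
The table held promoters (250 bases before to 50 after the start) for 7 of the 10 genes, in 8 windows, and not for Scd1, Scd2 and Fads1. CCAAT was found in 4 of the 7 genes (Acly, Me1, Fasn and Elovl5) and in 37.4% of all 32851 promoters, the Sp1 box GGGCGG in 3 of 7 (Acly, Me1 and Fads2) and in 35.7% of all, and the E-box CACGTG in 1 of 7 (Elovl5) and in 7.15%. The gene counts take any window of a gene. Me1 has a window at its start, with none of the CCAAT matches, and another inside the gene (chr9:86687228-86687527, minus strand), which holds the match, and the single Acaca window also lies inside its gene. A strict sterol regulatory element, TCACNCCAC, was found in 0 of 7 and in 1.24% of all promoters. These matches are letters in a window and were not measured as binding sites.

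In the ARC, Fasn was 19.0, 20.4, 17.3, 17.8 and 19.96 RPKM in fed libraries and 15.8, 14.0, 17.0, 16.002 and 15.5 RPKM in fasted libraries. The groups did not overlap, with means of 18.9 ± 1.34 and 15.6 ± 1.07 RPKM (n = 5 and 5; log2 change -0.26, SE 0.125, adjusted p = 0.657, exact permutation p = 0.00794). The VMH had the most Fasn, 21.7 to 31.3 RPKM (median 24.98) in fed and 12.9 to 26.9 RPKM (median 21.3) in fasted libraries, and these overlapped (log2 change -0.34, SE 0.114, adjusted p = 0.396). In the PVN, fed libraries ranged from 16.5 to 23.6 RPKM (median 18.8) and fasted libraries were 14.7, 15.0, 15.6, 14.5 and 18.4 RPKM. All but fasted replicate 5 lay below the fed range (log2 change -0.27, SE 0.120, adjusted p = 0.869). The DMH difference of -0.15 was within the spread (95% interval -0.42 to 0.12). Fasn was lower in fasted libraries in 11 of 11 comparisons within a batch (-0.042 to -0.71). In the ARC this sign follows from the complete separation and adds nothing to it. The other comparisons rest on few libraries each, from nuclei that share mice. The call in the average ended without DMH-fasted replicate 2 or 3 (adjusted p = 0.109 and 0.132) and without DMH-fed replicate 2 (0.103).

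The 2 steps before Fasn showed no call. Acly, on chromosome 11 (100476353 to 100528000, minus strand), had a mean of 30.5 RPKM over the libraries and a mean change of -0.01 (95% interval -0.17 to 0.15). Its changes were -0.17 (ARC), -0.09 (VMH), 0.13 (DMH) and 0.08 (PVN). Acaca, on chromosome 11 (84129672 to 84401651, plus strand), the carboxylase that commits acetyl-CoA to fatty acids, had the lowest level of the 10 genes, 10.4 RPKM, and a mean change of 0.01 (95% interval -0.16 to 0.17). For both, a mean change as large as that of Scd2 lies outside the interval. The intervals treat libraries that share mice as independent, and the Acaca values are uncertain because of the windows that it shares with other genes.

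Me1, on chromosome 9 (86581371 to 86695953, minus strand), had a mean change of -0.40 (SE 0.120), as large as that of Scd2, but the spread was wide and the change was not called (adjusted p = 0.207). It was lowest in the fasted DMH, where the libraries held 17.2, 7.49, 10.1 and 9.84 RPKM against 27.7, 16.6, 14.2, 19.2 and 17.6 RPKM in fed libraries. Only fasted replicate 1 reached into the fed range (log2 change -0.75, SE 0.258, adjusted p = 0.584, exact permutation p = 0.0397). The DMH is also the nucleus whose fasted libraries were deeper. In the other nuclei the changes were -0.32, -0.41 and -0.12 (ARC, VMH and PVN, exact permutation p = 0.230, 0.0736 and 0.706). The lowest fed value was that of PVN replicate 1, 8.35 RPKM, and without this library the mean change of -0.45 was called (adjusted p = 0.0418).

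The elongases were not shown to respond to fasting. Elovl6, on chromosome 3 (129532355 to 129638495, plus strand), which lengthens palmitate to stearate and so feeds the stearoyl-CoA desaturases, had a change of 0.09 in the average of the nuclei (95% interval -0.07 to 0.25), the highest value among the 10 genes. In the ARC it was 15.6 ± 2.14 RPKM in fed and 18.1 ± 2.10 RPKM in fasted libraries (n = 5 and 5; log2 change 0.20, exact permutation p = 0.0952). Elovl5, on chromosome 9 (77917364 to 77984519, plus strand), which elongates polyunsaturated fatty acids between the steps of Fads2 and Fads1, had a change of -0.12 (95% interval -0.27 to 0.03).

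**Figure D2:**
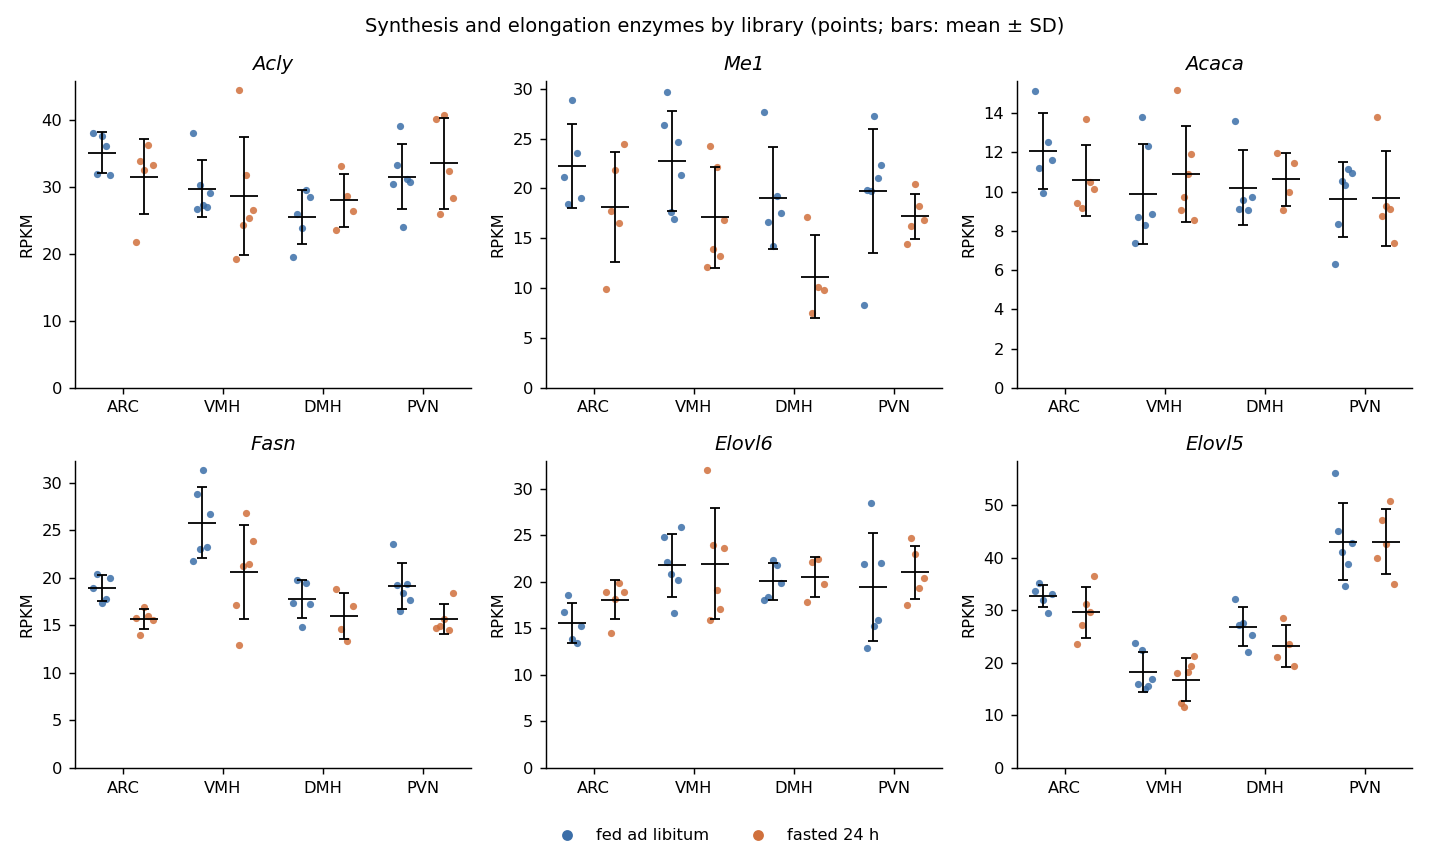
Level of Acly, Me1, Acaca, Fasn, Elovl6 and Elovl5 in each library (y axis, RPKM, from 0, scaled for each gene) by nucleus (x axis), with fed libraries in blue and fasted libraries in orange, 1 point a library, and bars giving the mean ± SD. Fed and fasted points overlap in each panel except for Fasn in the ARC, and Elovl5 is highest in the PVN (43.0 RPKM in fed mice) and lowest in the VMH (18.3 RPKM).

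Within each nucleus, more of the 10 genes had a negative than a positive change, though in the PVN the share was near that of all genes that varied. Negative changes numbered 9 of 10 in the ARC with a median of -0.29, 9 of 10 for the VMH with a median of -0.36, 7 of 10 for the DMH with a median of -0.14 and 6 of 10 for the PVN with a median of -0.10. Over all genes that varied, 46.7%, 44.8%, 49.8% and 54.3% of the changes were negative, and the medians were 0, 0, 5e-04 and -0.0012. An unadjusted p under 0.05 was reached by 4, 5, 2 and 4 of the 10 genes, and by 7.50%, 7.31%, 6.48% and 5.53% of all genes tested. Complete separation with the fasted libraries lower was seen for 4 of the 10 genes in the ARC (Fasn, Scd1, Scd2 and Fads1) and for 1, Scd2, in each of the VMH, DMH and PVN. A difference between nuclei in the response was not detected for any of the 10 genes (interaction, limma: 0 called and 0 with an unadjusted p under 0.05, with 0.00596% of all genes called).

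**Figure D3:**
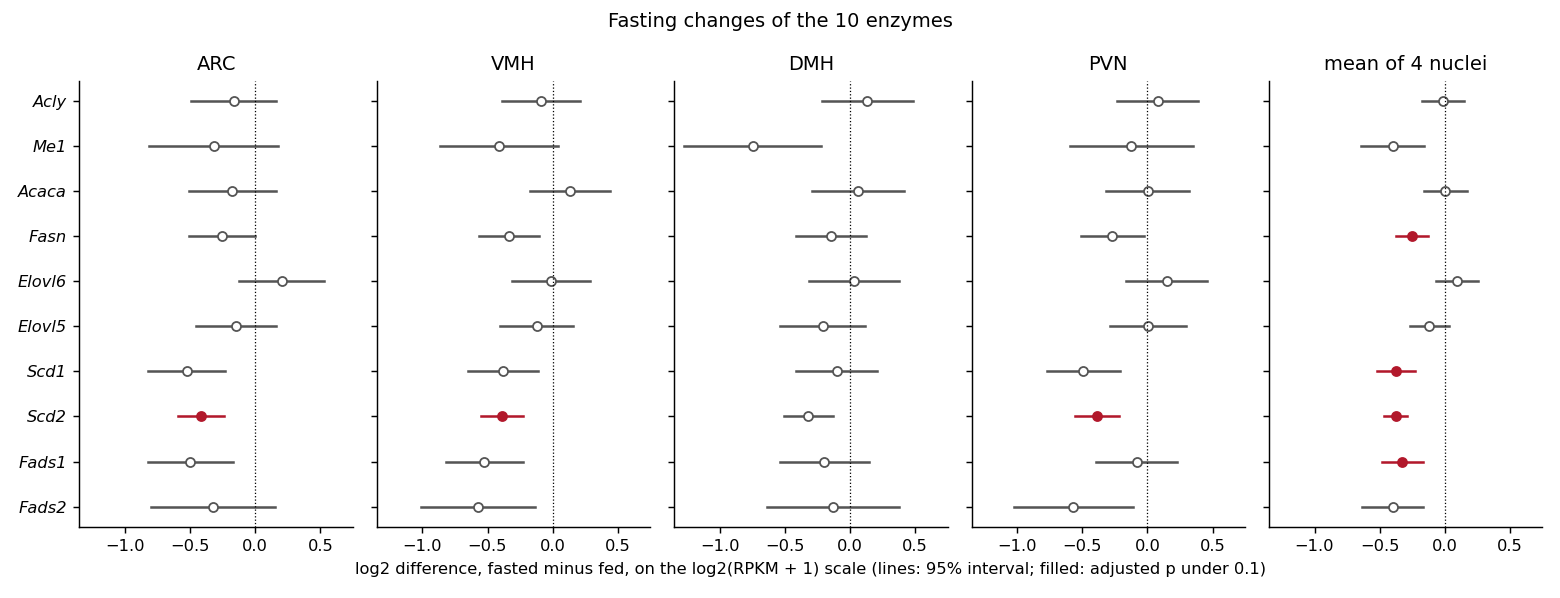
Change on fasting of each of the 10 genes (rows) in each nucleus and in the average of the 4 nuclei (panels), on the log2(RPKM + 1) scale (x axis), with 95% intervals as lines and filled red points for an adjusted p under 0.1. Scd2 is filled in the ARC, VMH and PVN (-0.42, -0.39 and -0.39), and Fasn, Scd1, Scd2 and Fads1 are filled in the average.

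In fed mice, 4 of the 10 genes differed between the nuclei (Elovl5, Scd2, Scd1 and Fasn), where 12.4% of all genes tested did. Elovl5 had the widest range, 1.20 on the log2 scale (adjusted p = 2.94e-07). Its level was 43.0 ± 7.33 RPKM in the PVN, 32.7 ± 2.16 in the ARC, 26.8 ± 3.71 in the DMH and 18.3 ± 3.81 in the VMH. Of the neighbours in this order, the DMH and VMH differed (adjusted p = 0.0213), while the PVN and ARC (0.229) and the ARC and DMH (0.484) did not differ beyond their spread. The stearoyl-CoA desaturases had another order, with the VMH highest and the PVN lowest. Scd2 was 262 RPKM in the VMH, 237 ± 11.3 in the DMH, 200 in the ARC and 177 in the PVN (adjusted p = 8.45e-06), and Scd1 was 57.5 ± 8.32, 47.3, 39.4 and 34.3 ± 5.68 RPKM in the same nuclei (adjusted p = 0.000686). No neighbours in that order were told apart for either gene (adjusted p = 0.202 to 0.697), but the VMH and PVN were (adjusted p = 3.07e-06 for Scd2 and 0.000150 for Scd1). Fasn was higher in the VMH, 25.8 ± 3.78 RPKM, than in the next nucleus, the PVN, with 19.1 ± 2.42 (adjusted p = 0.0174), and the PVN, ARC (18.9) and DMH (17.7) followed each other by 0.0103 and 0.0912 on the log2 scale, differences within the spread (adjusted p = 1).

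The test over the fed nuclei called none of the other 6 genes. Fads2 had means of 39.5 to 66.7 RPKM (adjusted p = 0.131), Elovl6 of 15.6 to 21.8 (0.229), Acly of 25.5 to 35.1 (0.282), Acaca of 9.61 to 12.1 (0.572), Fads1 of 59.1 to 71.2 (0.763) and Me1 of 19.1 to 22.8 RPKM (0.945). In the test of the fed ARC against the fed VMH alone, where 4.07% of the genes tested were called lower in the ARC, 2 of these 6 were among them, Fads2 (log2 difference -0.71, adjusted p = 0.0512) and Elovl6 (-0.45, 0.0791). All pairs of fed nuclei were compared, and neither gene was called in another pair (lowest adjusted p = 0.299, Fads2 in the ARC against the DMH). The summed level of 10 oligodendrocyte markers also had its highest mean in the VMH, with 301 ± 43.6 RPKM in fed mice there, 180 ± 31.7 in the DMH, 122 ± 19.0 in the PVN and 116 ± 19.9 in the ARC. The summed levels of 8 neuron markers (1615 ± 88.4 RPKM there against means of 775 to 1073 in the other fed nuclei) and 8 astrocyte markers (521 ± 84.6 against 390.3 to 475 RPKM) were likewise highest in the fed VMH. The part of these markers in the order of Scd2, Scd1 and Fasn was not tested.

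Over the 42 libraries, the genes whose levels followed Scd2 most closely were Hspa4l (Pearson r = 0.843), a heat shock protein of the Hsp70 family, Gpm6b (0.810), a proteolipid of the myelin family, and Scd1 (0.808), among 11438 genes with a mean of at least 5 RPKM. After the group means were removed, r was 0.464, 0.565 and 0.0990. The libraries share mice and amplification, and these values are given as a description.

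The wider pathway was described by 5 other gene lists, by their counts and medians and without a test. Of 15 lipogenic regulators, none was called in limma, in a nucleus or in the average, with 5 at an unadjusted p under 0.05 in the average, all lower, and a median mean change of -0.14. Srebf1, which drives these enzymes in liver, was 7.39 ± 4.21 RPKM in the fed and 2.61 ± 0.835 RPKM in the fasted ARC (n = 5 and 5; log2 change -1.07, SE 0.288, adjusted p = 0.277) and had changes of -0.05, -0.18 and -0.07 in the VMH, DMH and PVN. Insig1, which holds the SREBP proteins in the endoplasmic reticulum and is itself induced by them, had a change of -0.61 in the ARC (adjusted p = 0.552) and of -0.26 on average (adjusted p = 0.559). Mlxipl, the carbohydrate response factor, had a mean level of 0.756 RPKM and a mean change of 0.09, and the lipogenic protein Thrsp had a change of -0.20 (adjusted p = 0.881 and 0.856). Nr1h2, an oxysterol receptor, had the opposite sign in the ARC, with 1.45 ± 0.467 RPKM in fed and 5.29 ± 5.51 in fasted libraries (log2 change 1.04, SE 0.338, adjusted p = 0.453), and a mean change of 0.15.

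Of 23 other enzymes of synthesis, elongation and desaturation, none was called in limma either, with 1 at an unadjusted p under 0.05 in the average, a higher one, and a median of -0.03. Among them the mitochondrial carboxylase Acacb stood at 0.642 RPKM with a change of -0.03, and the acetyl-CoA synthetase Acss2 had a change of -0.10 (adjusted p = 1 and 0.897). Of 11 genes of NADPH and acetyl-CoA supply, 1 was called lower in the average, the citrate synthase gene Cs (log2 change -0.32, SE 0.0773, adjusted p = 0.0514), which makes the citrate that Acly cleaves. Its ARC level was 61.7 ± 10.1 RPKM in fed and 45.7 ± 8.36 RPKM in fasted libraries. The median of that list was -0.04.

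Of 20 genes of acyl-CoA activation and glycerolipid synthesis, 19 passed the filter and 1 was called lower, the fatty acid binding protein Fabp7, a gene of astrocytes and radial glia, while the list median was -0.08. Fabp7 fell from 55.9 ± 22.5 to 21.2 ± 5.30 RPKM in the VMH (n = 6 and 6; log2 change -1.31, SE 0.266, adjusted p = 0.0555) and had a mean change of -1.03 (adjusted p = 6.71e-05). The cholesterol synthesis list of 16 genes, with a median of -0.19, held 4 called genes in the average, all lower and none called in a single nucleus. Among them were Hmgcs1 (log2 change -0.32, adjusted p = 0.00601), Idi1 (-0.49, 0.0424) and Msmo1 (-0.42, 0.0687). Hmgcs1 was 40.9 ± 4.67 RPKM in the fed and 29.3 ± 2.63 RPKM in the fasted ARC (n = 5 and 5).

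**Figure D4:**
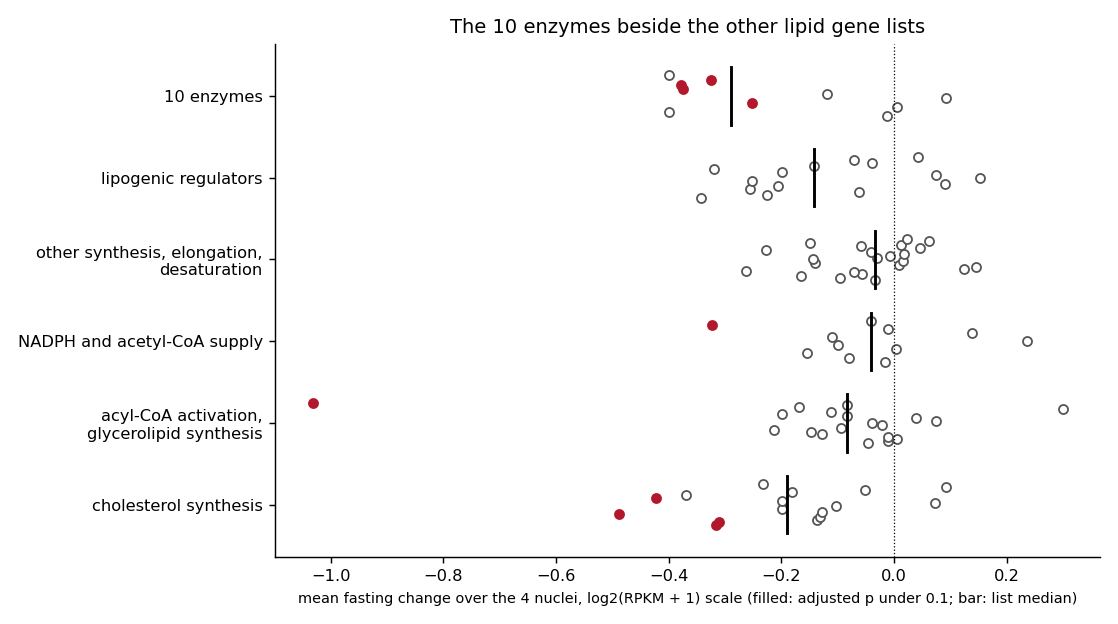
Mean change on fasting over the 4 nuclei (x axis, log2(RPKM + 1) scale) of each gene of the 10 enzymes and of 5 other lipid gene lists (rows), 1 point a gene, filled red for an adjusted p under 0.1, with a bar at the list median. The medians are -0.29 for the 10 enzymes and -0.19 for cholesterol synthesis, and lie between -0.14 and -0.03 for the other 4 lists.

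Markers of the cell types that a captured nucleus can hold were followed beside these changes. The summed levels of 7 lists (oligodendrocytes, their precursors, astrocytes, neurons, microglia, endothelial cells, and tanycytes with ependymal cells) were compared in each nucleus. Of the 28 comparisons, 2 had an exact permutation p under 0.05, the precursors in the ARC (44.2 ± 5.63 against 37.7 ± 1.96 RPKM in fasted libraries, log2 change -0.22, p = 0.0476) and astrocytes in the DMH (475 ± 40.3 against 537 ± 29.3 RPKM, 0.18, p = 0.0397), and none passed adjustment over the 28 (lowest adjusted p = 0.455). Of the 28 changes, 21 were negative, the lowest that of the precursors in the VMH (-0.30, exact permutation p = 0.0649). Markers of oligodendrocytes, the cells that make myelin, had changes of -0.07, -0.18, 0.10 and -0.10 in the ARC, VMH, DMH and PVN (exact permutation p = 0.833, 0.134, 0.564 and 0.474). In the VMH, the astrocyte water channel Aqp4 was 20.03 ± 5.001 RPKM in fed and 9.89 ± 2.05 RPKM in fasted libraries, and it was called (log2 change -0.94, adjusted p = 0.0477). Its change was negative in the other nuclei too (-0.41 in the ARC, -0.33 in the DMH and -0.70 in the PVN, none called). It was called lower in the average (-0.59, adjusted p = 0.00131). Of the 8 astrocyte markers, 4 had a negative change in the average, and Aqp4 was the only one called. Among the rest, Aldoc and Fgfr3 were higher in fasted libraries (0.18 and 0.26, neither called). In the VMH, the summed astrocyte markers went from 521 ± 84.6 to 490 ± 33.3 RPKM (exact permutation p = 0.558). The part of cell composition in the changes of the 10 genes was not tested.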

How the data were processed

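Libraries came from laser-captured nuclei, with RNA amplified by the NuGEN Ovation chemistry and sequenced as single-end reads without strand, so overlapping genes can share reads and low values carry amplification noise. The submitters' notes name CASAVA 1.7, TopHat2 2.0.11, Cufflinks 2.2.1, edgeR and limma, and the build is GRCm38. The authors deposited RPKM values for 37907 Ensembl IDs in 42 libraries. GENCODE M21 paired 35965 of them with a symbol. No value was 0. The values fit a count of 5 reads added in the mean library (1.46 to 14.5 with depth) and 3 batches of 10, 16 and 16 libraries whose means were removed, which understates the change of low genes. In each library 97.7% to 98.9% of low values were whole reads within 0.05 read. Batches and depths (1.33 to 13.2 M reads, from the annotated lengths) were inferred from the values.

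Values were taken as log2(RPKM + 1). Genes with at least 1 RPKM in at least 4 libraries were kept (33579, of which 28831 varied). The fit was limma 3.58.1 in R 4.3.3 with a mean for each of the 8 groups, a trend in eBayes and Benjamini-Hochberg adjustment, and adjusted p under 0.1 was called. It stands in for the count model that the study used. With that model the study reports higher Npy and Agrp in the fasted ARC. In the present fit Agrp was called there (log2 change 1.61, adjusted p = 0.0613), but Npy was not (1.33, adjusted p = 0.465). A gene not called here may therefore still change. Single genes were also tested by a two-sided exact permutation test in each nucleus (40 tests, not adjusted). The fit was tested on simulated data with independent libraries and changes planted in the ARC only. Those changes were larger on the log2 scale than the called changes of Scd2, Scd1, Fads1 and Fasn. The simulation therefore does not cover changes of that size, the average of the nuclei or libraries that share mice. The methods of the study give the libraries of a group as biological replicates from different mice, but the labels name no mouse, so libraries of different nuclei that share a mouse were fitted as independent. The highest correlation of a pair of libraries was 0.977, and none was a duplicate. The 10 genes and the other lists were chosen with earlier results of these data known. Beyond the 10 genes, the text names Srebf1, Insig1, Mlxipl, Thrsp, Acacb, Acss2 and Hmgcs1, and each listed gene past the threshold in a nucleus. Cs, Idi1 and Msmo1, called in the average, Nr1h2, and the markers named were chosen after their values were seen. A further called gene of the cholesterol synthesis list is not reported here. Alternatives were another pseudocount, 2 other filters, median centring, quantile normalization, array weights, batch or depth as a covariate, a replicate block, each nucleus fitted alone and leaving out each library.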

Additional observations from a re-analysis of the deposited data

Results flagged for a closer look

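Each of the 10 genes was screened in the 8 groups for a library that stands apart from the rest of its group, by the gap to the nearest library over the range of the group. Of the 80 combinations, 6 were past the limit, where chance gives about 1 in 20 (4). Fads1 was 98.3 RPKM in VMH-fed replicate 1 and 52.5 to 69.1 RPKM in the other fed VMH libraries, and without it the VMH change went from -0.52 to -0.42. Scd2 was 156 RPKM in PVN-fed replicate 3 and 177 to 187 in the others, and without it the change went from -0.39 to -0.42 (adjusted p = 0.0573). Fasn was 18.4 RPKM in PVN-fasted replicate 5 and 14.5 to 15.6 in the others (change -0.27, without it -0.33). Acly was 21.8 RPKM in ARC-fasted replicate 1 against 32.5 to 36.3 (change -0.17, without it -0.04) and 38.1 RPKM in VMH-fed replicate 1 against 26.7 to 30.3 (change -0.09, without it -0.02). Acaca was 13.6 RPKM in DMH-fed replicate 1 against 9.05 to 9.70 (change 0.06, without it 0.16).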

How the results depend on the processing

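The counts of called genes among the 10 changed as follows. The ARC count went from 1 to 0 with a pseudocount of 0.1, with a replicate block and with each nucleus fitted alone. The VMH count went from 1 to 0 with array weights and alone, and the PVN count from 1 to 0 with quantile normalization, with a replicate block and alone, and to 2 with array weights. These losses were those of Scd2, whose change stayed between -0.42 and -0.32 (adjusted p = 0.108, 0.118 and 0.691 in the ARC, 0.151 and 0.857 in the VMH, 0.178, 0.160 and 0.404 in the PVN), and the gain was Scd1 (adjusted p = 0.0435). Fitted alone, a nucleus has fewer libraries to estimate the spread. The other causes were not tested. The count in the average was 2 with a replicate block, where Fasn (adjusted p = 0.105) and Fads1 (0.121) were lost, and Fads2 gained a call with a mean RPKM of at least 5 (0.0988) and with depth as a covariate (0.0962). Same-numbered libraries did not deviate together, either fed and fasted in a nucleus (correlations -0.121 to 0.0544) or of 2 nuclei in a state (-0.131 to 0.0655, 0 of 58 pairs over 0.1). A replicate number need not follow a mouse, since fed replicate 2 fell in inferred batch 2 for the ARC and in batch 1 for the VMH and PVN. Neither the block nor these correlations can therefore show whether libraries of the same mouse deviate together. Leaving out 1 library gave counts of 0 to 1 in the ARC, 0 to 2 in the VMH, 0 to 0 in the DMH, 0 to 1 in the PVN, 2 to 5 in the average (2 without DMH-fasted replicate 3), 4 to 5 between fed nuclei and 0 to 0 for the interaction. Changes near 0 turned sign without a call. These were Acaca in the average (-5e-04 with median centring, -0.0348 with array weights, -0.026 to 0.03 leaving out 1 library) and in the PVN (-0.126 with array weights, -0.0106 with a replicate block, -0.121 to 0.0831), Elovl6 in the VMH (0.0277 with quantile normalization, -0.125 to 0.0681) and in the DMH (-0.0126 to 0.0934), Acly in the average (0.0061 with quantile normalization, 0.0087 with depth as a covariate, -0.0451 to 0.0193) and in the VMH (-0.226 to 0.0089), and Elovl5 in the PVN (-0.0567 to 0.0823). The largest shift of the median of all genes under another scaling was -0.0124. Depth limits Me1 and Elovl5 most, with estimated minima of 62 and 85 reads in a library.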
